A study of Mus musculus with 2 samples.

Results

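The miRNAs miR-103 and miR-107 were followed on 2 mouse miRNA arrays of knee joint cartilage, 1 of a control sample and 1 of a Col2a1Tsc1KO sample. The members were all miRNAs whose name in the array files begins with miR-103 or miR-107, with any arm. There were 4 of them among the 1247 miRNAs with probes: miR-103-3p, miR-107-3p, miR-103-1-5p and miR-107-5p. Of these, both 3p arms were detected well above background by both arrays, and both 5p arms by neither. The control sample is labelled wildtype. The other sample carries a deletion of Tsc1 that the design text calls specific to Col2a1, the gene of the main cartilage collagen, and the labels do not name the driver line or say in which cells of the joint Tsc1 was lost. Tsc1 encodes a brake on the growth kinase complex mTORC1. Both samples came from male mice aged 8 weeks, whose articular cartilage was stripped from the knee before RNA extraction. The sources used here do not give the number of mice behind each sample. With 1 array per group there was no replicate check of any difference, and no p-value was computed. Errors below are standard errors (SE) over repeated spots of a probe, which hold technical noise alone and leave out the spread between probes.

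The genes of this family lie within introns of the pantothenate kinase genes, whose enzymes catalyse the first and rate-limiting step of coenzyme A synthesis. A miRNA is cut from a hairpin precursor, and the arm that is loaded into Argonaute usually accumulates while the other arm is degraded. In this family the 3p arm is the loaded one. miR-103 and miR-107 are known for repressing Dicer, the enzyme that frees mature miRNAs from their hairpins, and for damping insulin signalling in liver and fat through caveolin 1.

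The 3 precursors are shown because the arms explain which probes can see which gene. Sequences are those of RefSeq for build GRCm38.p6, 5′ to 3′, with the 2 mature arms of each hairpin in capitals. Mir103-1 lies on chr11:35782396-35782481 (plus strand) within the span of Pank3. Mir103-2 lies on chr2:131288052-131288137 (plus strand) within the span of Pank2. Mir107 lies on chr19:34820687-34820773 (minus strand) within the span of Pank1.
Mir103-1: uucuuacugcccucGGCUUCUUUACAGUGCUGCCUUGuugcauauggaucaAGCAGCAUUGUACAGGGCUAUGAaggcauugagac
Mir103-2: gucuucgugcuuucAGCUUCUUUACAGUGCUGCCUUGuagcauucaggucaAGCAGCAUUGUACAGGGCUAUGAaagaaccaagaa
Mir107: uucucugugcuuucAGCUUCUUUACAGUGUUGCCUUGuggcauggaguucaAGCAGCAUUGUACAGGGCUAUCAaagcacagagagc

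The mature 3p arms carry the finding, so they are set side by side with the seed, bases 2 to 8 counted from the 5′ end, in capitals.
miR-103-3p: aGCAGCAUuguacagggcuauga
miR-107-3p: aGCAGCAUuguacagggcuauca
Both have 23 bases and 1 seed, and they differ by the single substitution G22C, with miR-103-3p as the reference. No other mature miRNA in the RefSeq table had this seed. Both miR-103 hairpins give the identical 3p arm, so the signal of miR-103-3p is the sum over Mir103-1 and Mir103-2, whereas miR-107-3p comes from Mir107 alone. The 5p arms of both miR-103 hairpins differ by G1A, and that of Mir103-2 differs from the 5p arm of Mir107 by C16U.

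The probes decide how well these near-copies can be told apart. They are DNA, complementary to the 3′ part of a miRNA, and are shown with the base that differs between miR-103 and miR-107 in capitals.
miR-103-3p, 17 bases: tCatagccctgtacaat
miR-103-3p, 18 bases: tCatagccctgtacaatg
miR-107-3p, 19 bases: tGatagccctgtacaatgc
miR-107-3p, 20 bases: tGatagccctgtacaatgct
miR-103-1-5p, 16 bases: caaggcaGcactgtaa
miR-107-5p, 17 bases: caaggcaAcactgtaaa
In each 3p probe the discriminating base is the 2nd from the 5′ end, so that a miR-107 molecule pairs with a miR-103 probe over all bases but 1 close to the end, and the reverse. How much of a probe's signal came from the other miRNA was not tested. Outside the family, the longest run that a 3p probe could pair with in any mature miRNA of the table was 8 bases. All 3 probes named for miR-103-1-5p, of 14 to 16 bases, were fully complementary to miR-103-2-5p as well, so they report both miR-103 precursors. The discriminating base of the 5p probes is the 8th, well inside the paired stretch.

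Each array carried 52044 spots, 49880 of them for miRNAs, and no spot was saturated. Of the miRNA spots, 19.6% on the control array and 21.1% on the Col2a1Tsc1KO array were well above background. Both arrays came from 1 slide. After scaling, the 4 chondrocyte markers, both arms of miR-140 and of miR-455, were all measured, with a summed level of 2322 on the control and 5268 on the Col2a1Tsc1KO array. Summed levels of other markers also moved: they went from 1410 to 737 for 4 of 4 skeletal muscle markers, from 9633 to 4454 for 4 of 4 leukocyte markers, from 2340 to 3472 for 2 of 3 red cell markers, from 1555 to 1977 for 2 of 2 endothelial markers, from 162 to 425 for 2 of 3 fibroblast and smooth muscle markers and from 189 to 330.5 for 3 of 3 adipocyte markers. A sum follows its brightest marker, as with the leukocyte miR-223-3p at 8163 and 3632, and 1 marker in each of 4 lists ran against the sum. The leukocyte miR-150-5p had a log2 difference of 0.64, negative with total gene signals. The muscle miR-206-3p had 0.05, turning in 2 of 12 alternatives, the chondrocyte miR-455-5p -0.03, turning in 10 of 12, and the adipocyte miR-378a-3p -0.12, turning in 7 of 13. Among markers that rose with their sums, the red cell miR-451a turned negative in 1 of 13 alternatives. The endothelial miR-126-3p turned negative in 2 of 13 and miR-126-5p in 1 of 13. The liver marker miR-122-5p and the neural markers miR-124-3p and miR-9-5p were well above background nowhere, while the neural miR-128-3p had 50.5 and 36.2. In bulk tissue, fewer cells of a type and less RNA per cell cannot be told apart. The part of cell makeup in the differences of miR-103 and miR-107 was not tested.

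Both 3p arms gave strong, even signal on both arrays, and the Col2a1Tsc1KO array was brighter at every probe before any scaling. The 18-base probe of miR-103-3p read a median of 409.5 intensity units on the control array (lowest 386, highest 439, 20 spots used) and 688 on the Col2a1Tsc1KO array (635 to 726, 19 spots used). Its 17-base probe had 216 (195 to 243, 20 spots) and 317.5 (300 to 352, 18 spots). The lowest Col2a1Tsc1KO spot of each miR-103-3p probe thus stood above the highest control spot of that probe.

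The spots of miR-107-3p stood further apart. Its 20-base probe had a median of 348 on the control array (336 to 368, 19 spots) and of 767.5 on the Col2a1Tsc1KO array (706 to 803, 16 spots). Its 19-base probe had 112 (98.7 to 128, 20 spots) and 282 (262 to 322, 17 spots). Here too the lowest Col2a1Tsc1KO spot lay above the highest control spot. Negative-control spots had medians of 5.02 and 4.93 and reached 61.8 and 70.2, below the lowest spot of the 4 probes, 98.7.

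**Figure D1:**
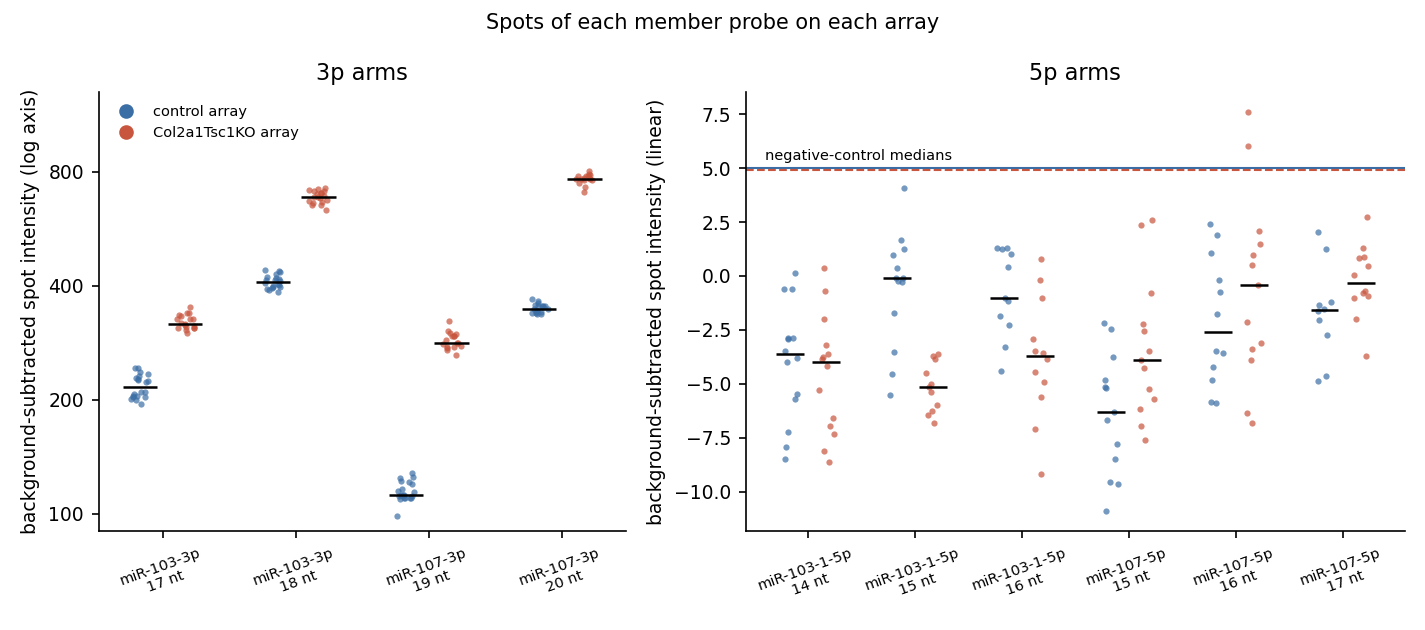
Background-subtracted intensity of each usable spot of the member probes (points; bars are medians) on the control and the Col2a1Tsc1KO array, on a log axis for the 3p arms and a linear axis for the 5p arms, with the probe's length in bases (nt). The 3p spots of the 2 arrays do not overlap for any probe, while the 5p spots lie mostly below the medians of the negative controls, 5.02 and 4.93.

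The arrays were then set to a common scale, because the 75th percentile over probes that both arrays detected was itself 0.41 higher (log2) on the Col2a1Tsc1KO array. The mean over the spike-ins was 0.046 higher there, and scaling to it instead gave 0.61 for miR-103-3p and 1.18 for miR-107-3p. The percentile scaling took away part of the raw gap for miR-103-3p and less of it, in proportion, for miR-107-3p. Scaled, miR-103-3p had an intensity of 344 in the control and 407 in the Col2a1Tsc1KO sample, which is 1.18-fold higher or a log2 difference of 0.24 ± 0.02. miR-107-3p had 230.1 and 406, which is 1.77-fold higher or a log2 difference of 0.82 ± 0.02. Levels of the 2 miRNAs are not compared with each other, since they were read by different probes.

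Of the 257 miRNAs measured on both arrays, 40.9% were higher on the Col2a1Tsc1KO array, and the median difference was -0.22. Higher by 2-fold or more were 40 (15.6%), and lower by as much were 45 (17.5%). With no scaling the split was 59 to 13. After normexp background correction followed by quantile normalization, a setting called normexp here, it was 23 to 3. At the main scaling both measured members were among those higher and neither passed 2-fold. In the order of differences 80 of the 257 miRNAs stood above miR-103-3p and 47 above miR-107-3p. With no scaling miR-107-3p stood at 1.23, past 2-fold, where 23.0% of all miRNAs were at least 2-fold higher, and miR-103-3p at 0.65. Split by level into classes of 86 bright, 85 middle and 86 dim miRNAs, both members fall in the bright class, whose median difference was 0.11, against -0.26 in the middle and -0.23 in the dim class.

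**Figure D2:**
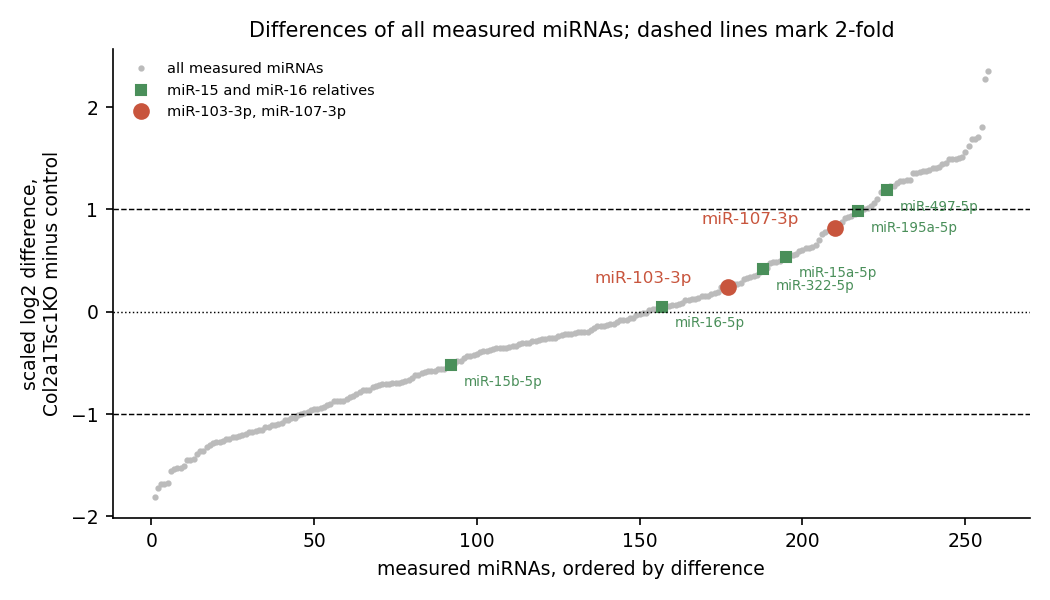
Scaled log2 difference (vertical axis) of all 257 miRNAs measured on both arrays, ordered along the horizontal axis, with both members and the listed relatives of miR-15 and miR-16 marked. miR-103-3p (0.24) and miR-107-3p (0.82) lie between 0 and the dashed line of 2-fold.

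The 2 miRNAs, 1 base apart, did not shift by the same amount. The difference of miR-107-3p exceeded that of miR-103-3p by 0.58 ± 0.02, or 1.49-fold, a gap that any constant scaling leaves as it is. Single probes bore the same order: the miR-103-3p probes gave 0.33 ± 0.02 (18 bases) and 0.15 ± 0.03 (17 bases), and the miR-107-3p probes 0.73 ± 0.01 (20 bases) and 0.91 ± 0.03 (19 bases). The lowest miR-107-3p probe was thus 0.39 above the highest miR-103-3p probe, while the probes of 1 miRNA lay 0.18 apart for miR-103-3p and 0.19 for miR-107-3p. Over all 191 miRNAs with at least 2 measured probes, the median gap between the highest and the lowest probe of a miRNA was 0.08. Of the 191, 2 (1.05%) had a gap as large as that between miR-103-3p and miR-107-3p. These are gaps between probes of 1 miRNA and give no spread for gaps between 2 miRNAs.

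Spots at the same position of the 2 arrays were also compared pair by pair, with outlier spots left out. For the 18-base miR-103-3p probe the scaled log2 ratio ran from 0.19 to 0.47 with a median of 0.33 over 19 pairs, and all 19 were above 0. The 17-base probe ran from -0.08 to 0.33 with a median of 0.17, and 17 of 18 pairs were above 0. For miR-107-3p the 20-base probe ran from 0.63 to 0.78 with a median of 0.72 over 15 pairs, and the 19-base probe from 0.76 to 1.01 with a median of 0.91 over 17 pairs. No spot pair of miR-103-3p reached the lowest pair of miR-107-3p. The upper and lower parts of the array, divided at the middle row, gave medians of 0.34 and 0.32 for the 18-base and of 0.18 and 0.17 for the 17-base miR-103-3p probe. They gave 0.72 and 0.71 for the 20-base miR-107-3p probe (8 and 7 pairs) and 0.92 and 0.91 for the 19-base probe (14 and 3 pairs). Over these pairs the order of the 4 probes was the same in both parts. The 3 Col2a1Tsc1KO spots dropped as outliers from the 19-base probe, at 223, 229 and 241, all lay in the lower part. They were dimmer than its lowest spot used, 262. Spots dropped from the 20-base probe read 642, 651 and 691 in the lower part and 833 in the upper.

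**Figure D3:**
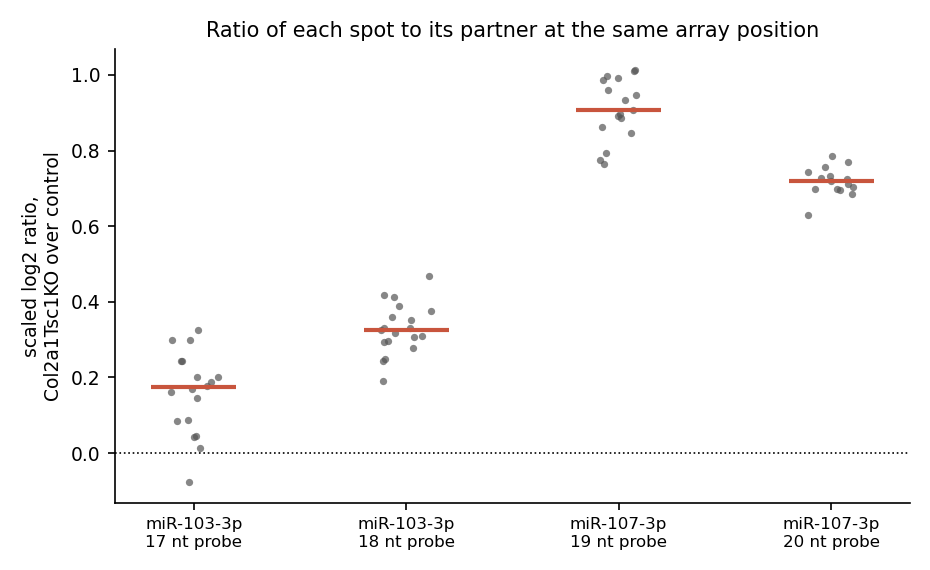
Scaled log2 ratio of each usable Col2a1Tsc1KO spot over the usable control spot at the same array position (points) for the 4 probes of the 3p arms, with the median as a bar. All miR-107-3p pairs (0.63 to 1.01) lie above all miR-103-3p pairs (-0.08 to 0.47).

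Probe length moved with the difference across the array. The 247 measured probes of 16 bases or fewer had a median log2 difference of -0.36, the 109 probes of 17 or 18 bases one of -0.06, and the 120 probes of 19 bases or more one of 0.52. The miR-103-3p probes fall in the middle class and the miR-107-3p probes in the longest. Within each miRNA the relation was not uniform: the longer miR-103-3p probe gave the higher difference and the longer miR-107-3p probe the lower. The part of probe length in the gap between miR-103-3p and miR-107-3p was not tested.

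Other miRNAs of equal length that differ by 1 substitution, a comparison added once the values were known, show what such gaps amounted to elsewhere on these arrays. Counting miR-103-3p with miR-107-3p, there were 12 such pairs among the 194 measured miRNAs found by name in the RefSeq table, and some share a member. Their gaps ran from 0.08 for miR-99a-5p and miR-100-5p to 1.26 for miR-10a-5p and miR-10b-5p, with a median of 0.23. Gaps wider than that of miR-103-3p and miR-107-3p were found for 2 pairs, miR-10a-5p with miR-10b-5p and let-7a-5p with let-7e-5p, the latter at 0.59. The gap of the family was thus in the upper part of this range and not its extreme. Among pairs whose substitution also lies near the 3′ end, miR-27a-3p and miR-27b-3p (C19U) differed by 0.099. The pair of let-7a-5p and let-7c-5p (A19G) differed by 0.33.

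**Figure D4:**
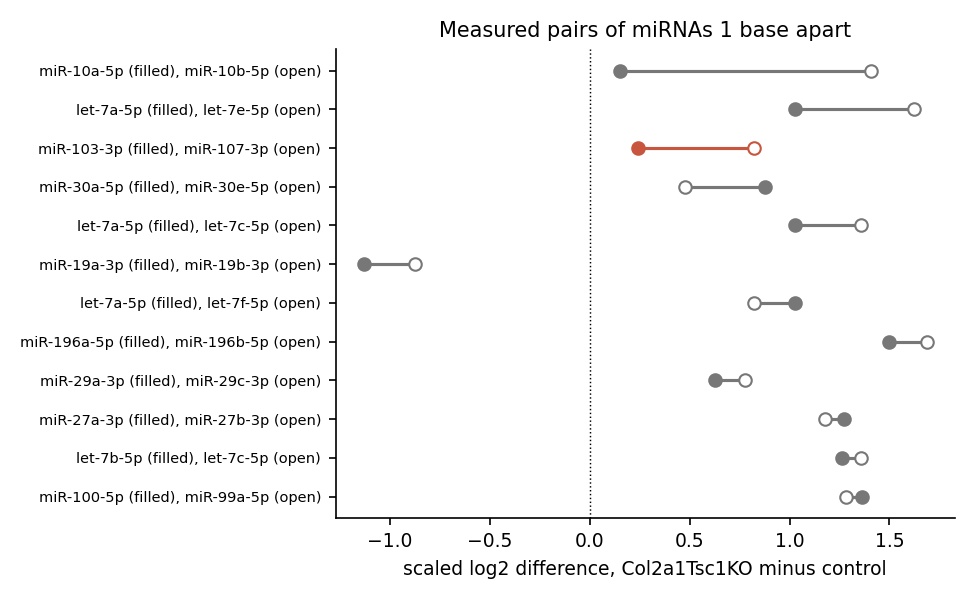
Scaled log2 differences (horizontal axis) of the 12 measured pairs of miRNAs that are 1 substitution apart, ordered by the gap between both points. The pair of miR-103-3p and miR-107-3p, in colour, has a narrower gap (0.58) than miR-10a-5p with miR-10b-5p (1.26) and let-7a-5p with let-7e-5p (0.59) and a wider one than the other pairs.

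The passenger arms left no usable signal. Here, unlike for the 3p arms, outlier spots are included. The 40 spots of miR-103-1-5p read a median of -1.09 intensity units on the control array (-8.47 to 9.48) and -4.02 on the Col2a1Tsc1KO array (-9.19 to 2.72). The 40 spots of miR-107-5p read a median of -3.51 (-10.9 to 7.49) and -0.98 (-7.89 to 10.9). None of these spots was well above background, and every one of these medians lay below that of the negative controls. No fold is given for the 5p arms.

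In the authors' deposited table of log2 values miR-103-3p stood at 8.02 for the control and 8.48 for Col2a1Tsc1KO, a difference of 0.46. There miR-107-3p stood at 7.62 and 8.56, a difference of 0.93. Both 5p arms were at that table's floors, -3.26 and -3.32. The table thus has the order of the 2 members as the scanner files do, with a smaller gap.

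Among the 9 listed relatives of miR-15 and miR-16, 6 were found by name in the RefSeq table with the 6-base core of the family's seed, gcagca, shifted by 1 base to positions 3 to 8. There miR-503-5p lacks the core at these positions, and miR-497-5p and miR-1907 were not found by name. An entry named miR-497a-5p holds the core at these positions, and it was not matched to the array's miR-497-5p. Relatives of miR-15 and miR-16 are known for restraining the cell cycle. These examples, with the core in capitals, show the shift.
miR-15b-5p: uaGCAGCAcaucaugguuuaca
miR-16-5p: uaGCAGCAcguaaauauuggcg
miR-195a-5p: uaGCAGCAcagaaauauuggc
miR-322-5p: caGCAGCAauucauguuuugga
Of this list 6 of 9 were measured, 5 of them were higher on the Col2a1Tsc1KO array against 40.9% of all miRNAs, 1 was at least 2-fold higher and none was 2-fold lower. Their median was 0.48 against -0.22 over all 257, and was 0.050 with dim probes at a floor and 0.92 with total gene signals. All 6 measured relatives fall in the bright class, where 44 of 86 miRNAs were higher and the median was 0.11. In that class 19 rose by 2-fold or more and 13 fell by as much. Highest in the list were miR-497-5p at 1.19 ± 0.01 and miR-195a-5p at 0.98 ± 0.02. The lowest were miR-15b-5p at -0.52 ± 0.01 and miR-16-5p at 0.05 ± 0.02, the latter turning negative with quantile normalization, with normexp and in the deposited values. Both 3p members had differences between those of miR-497-5p and miR-15b-5p, which ranked 32 and 166 from the highest among all 257 miRNAs. Outside the list, and named after its values were seen, miR-1906 holds the core at bases 2 to 7, as the members do, and stood at -0.67 ± 0.04.

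The other lists follow what the family is known for. Of 14 miRNAs known from insulin and lipid metabolism, 10 were measured, with 9 higher, 6 at least 2-fold higher and a median of 1.10. Over all 257 miRNAs 40.9% were higher, 15.6% were at least 2-fold higher and the median was -0.22. Under the alternatives the list's median ran from 0.70 to 1.61. They ran from miR-378a-3p at -0.12 ± 0.02, which turns positive under 7 of 13 alternatives, and miR-29b-3p at 0.49 ± 0.02 to miR-143-3p at 1.37 ± 0.02 and the p53-induced miR-34a-5p at 2.28 ± 0.04. The let-7 miRNAs, which like miR-103 and miR-107 repress Dicer, were all 9 measured and all higher, 4 of them at least 2-fold, with a median of 0.82 (0.43 to 1.35 under the alternatives), beside the same 40.9%, 15.6% and -0.22 over all miRNAs. They ran from miR-98-5p at 0.24 ± 0.02 and let-7g-5p at 0.63 ± 0.01 to let-7c-5p at 1.36 ± 0.01 and let-7e-5p at 1.62 ± 0.02. All of them but miR-98-5p fall in the bright class, where 44 of 86 miRNAs were higher and the median was 0.11. In that class 19 rose by 2-fold or more and 13 fell by as much. The measured metabolic miRNAs other than miR-143-3p, miR-378a-3p and miR-34a-5p are in that class too.

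Of 31 miRNAs that, like this family, lie within a protein-coding host gene, 19 were measured, with 11 higher, 4 at least 2-fold higher and a median of 0.35, which turns to -0.33 with dim probes kept at a floor and reaches 0.79 with the percentile over all probes. Over all 257 miRNAs 40.9% were higher, 15.6% were at least 2-fold higher and the median was -0.22, so the share of the list past 2-fold, 21.1%, was near the background. At their ends stood miR-7a-5p at -0.87 ± 0.04 and miR-93-5p at -0.71 ± 0.02, and miR-455-3p at 1.71 ± 0.05 and miR-218-5p at 1.80 ± 0.04. The lists share members, let-7a-5p and let-7b-5p being in both the metabolic and the Dicer list, and some related miRNAs are read by similar probes. The array has no probe for the mRNAs of Pank1, Pank2 or Pank3, so host and miRNA could not be compared.

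Likeness to the members was measured as the gap between log2 differences, over these 2 arrays alone. Closest to miR-103-3p were miR-98-5p (0.24), miR-204-5p (0.24), miR-21a-5p (0.25), miR-1839-3p (0.27) and miR-3095-3p (0.27). Closest to miR-107-3p were miR-320-3p (0.82), let-7f-5p (0.82), miR-26a-5p (0.80), miR-29c-3p (0.78) and miR-148a-3p (0.76). The 5 closest lay within 0.029 of miR-103-3p and within 0.055 of miR-107-3p. With the members 0.58 apart, the 2 sets could not overlap. Of these 10, miR-21a-5p turns negative with quantile normalization, with normexp and in the deposited values, and miR-204-5p with dim probes at a floor.

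**Figure D5:**
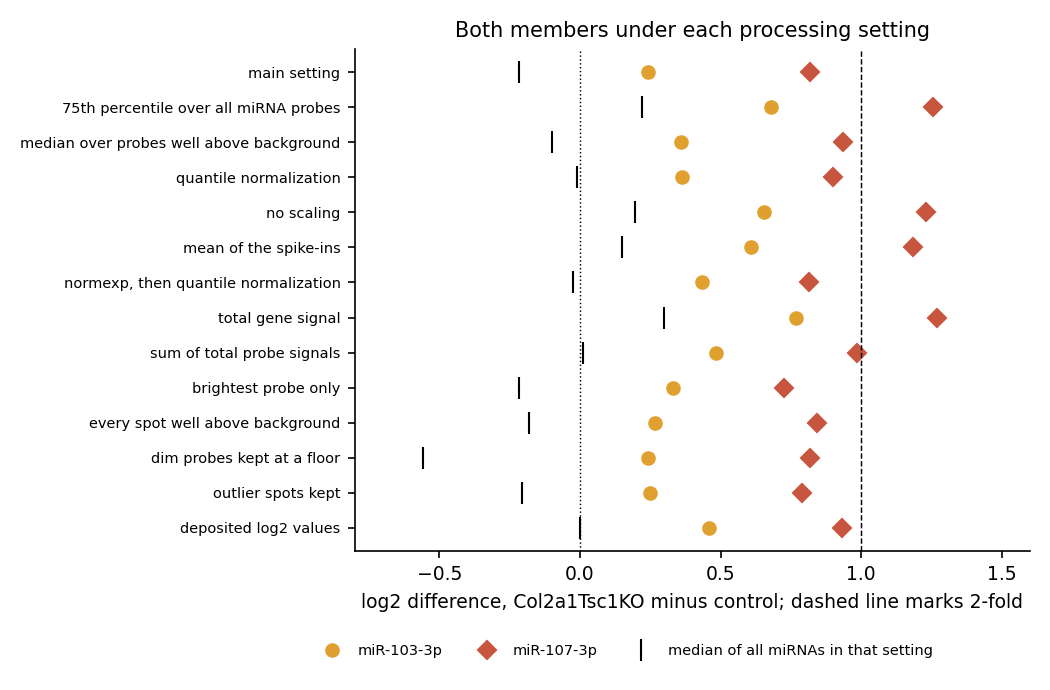
Log2 difference of miR-103-3p and miR-107-3p (horizontal axis) at the main setting and under 13 alternatives (rows), with the median of all miRNAs measured in that setting. miR-107-3p lies to the right of miR-103-3p in every row, and both lie to the right of that median and of 0. Rows that shift all probes alike cannot change the gap between the members.

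Both members stayed above 0 under all 13 alternatives, miR-103-3p between 0.24 and 0.77 and miR-107-3p between 0.73 and 1.27. No alternative put miR-103-3p below its main value of 0.24. miR-107-3p passed 2-fold in 4 of the 13: with no scaling, with spike-ins, with all probes setting the percentile and with total gene signals. The gap between the members held its sign throughout and shrank most, to 0.38, with normexp and the quantile normalization after it. Settings that shift all probes alike or leave the member probes untouched cannot change the gap, and it stayed at 0.58 there. These were the percentile over all probes, median scaling, no scaling, spike-ins, all spots well above background and dim probes at a floor.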

How the data were processed

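One-colour (Cy3) Agilent mouse miRNA arrays measured 1 control and 1 Col2a1Tsc1KO sample. Per the file headers, and as the submitters' processing notes name it, Agilent Feature Extraction 10.7 made the deposited intensity values, subtracting background with spatial detrending and leaving the arrays unscaled. The authors also deposited log2 values per miRNA. The sources used here do not say how. Set against unscaled log2 total probe signals over 303 miRNAs, their columns had slopes of 1.05 and 1.01, so higher values stand for brighter signals. Of the 303 differences 260 (85.8%) had the same sign, a share that depends on how each side is centred. The correlation of the differences across miRNAs was 0.90. Column medians, -3.26 and -3.32, are the floors. The median deposited difference was 0 over the 304 miRNAs above the floor in both columns, and how the values were centred stays unknown.

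Outlier spots were dropped and signals under 1 set to 1. A probe was well above background when over 50% of its spots were so marked. Log2 intensities were averaged over spots, the 75th percentile over the 476 probes that both arrays detected well above background was set equal, and a miRNA's difference is the mean over such probes. Scaled intensities are on the mean of both arrays' percentiles. There was 1 array per group, so no test was run, the number of arrays limits the precision, and 2-fold served only for counts. Named were all members, the 2 highest and 2 lowest of 4 lists (offset-seed relatives, insulin and lipid metabolism, Dicer-targeting, intronic in a protein-coding host) and the 5 miRNAs nearest to each 3p member in difference. miR-378-3p was read as miR-378a-3p, and the red cell marker miR-486-5p was not analysed here because the array has no probe under that name. Members and lists were chosen with earlier results of these data known. The steps were tested on simulated data. Python 3.11.15, pandas 2.3.3, R 4.3.3 and limma 3.58.1 were used.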

Additional observations from a re-analysis of the deposited data

How the results depend on the processing

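With 1 array per group no replicate could be left out. No paired analysis was possible because each group holds 1 array. The yardstick for a move was 1 SD over spots, and for counts a factor of 1.5. The sum of total probe signals was chosen after seeing the data. The median over all miRNAs shifted by 0.44 with the percentile over all probes, 0.41 unscaled, 0.36 with spike-ins, 0.21 with quantile normalization, 0.19 with normexp, 0.12 with median scaling, 0.51 with total gene signals, 0.23 with summed probe signals, 0.22 in the deposited values and -0.34 at a floor.

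For miR-103-3p, miR-107-3p and the medians of the offset-seed, metabolic, Dicer and intronic lists in turn, values were 0.68, 1.26, 0.91, 1.54, 1.26 and 0.79 when all probes set the 75th percentile, 0.65, 1.23, 0.89, 1.51, 1.23 and 0.76 unscaled, 0.61, 1.18, 0.84, 1.47, 1.19 and 0.72 with spike-ins, and 0.48, 0.99, 0.63, 1.33, 1.07 and 0.57 with summed probe signals. Median scaling gave 0.36, 0.94, 0.59, 1.22 and 0.94 for the first 5, and total gene signals 0.77, 1.27, 0.92, 1.61 and 1.35. With quantile normalization miR-103-3p stood at 0.36 and the metabolic and Dicer medians at 0.75 and 0.43. With normexp, which adds an offset of 50 and is followed by quantile normalization, miR-103-3p stood at 0.43. The metabolic, Dicer and intronic medians were 0.86, 0.59 and 0.10 there, and the parts of both steps were not tested apart. In the deposited values miR-103-3p, miR-107-3p and the offset-seed, metabolic and Dicer medians were 0.46, 0.93, 0.57, 0.84 and 0.49. The brightest probe alone gave 0.73 for miR-107-3p. Where all spots of a probe had to be well above background, the intronic median was 0.21.

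With dim probes at a floor, which adds unmeasured members, the offset-seed, metabolic and intronic medians were 0.050, 0.70 and -0.33, the last a reversal. The difference of miR-103-3p minus that of miR-107-3p was -0.38 with normexp and -0.39 with the brightest probe, against -0.58. Those at least 2-fold higher, 40, became 23 with normexp and 80 with total gene signals. Those at least 2-fold lower, 45, became 13 with the percentile over all probes, 13 unscaled, 14 with spike-ins, 3 with normexp and 24 with total gene signals. Where the setting does not show the cause, the cause was not tested.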
